A study of Mus musculus with 41 samples.

Results

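The late sustained SOX9 sites are 1975 regions of the mouse genome at which CUT&RUN (CNR) detected SOX9 at week (W) 6 and again at W12 of SOX9 induction, but not at W1, not at W2 and not before induction (D0). They were found by merging the SOX9 peaks of W1, W2, W6 and W12 wherever they overlapped by at least 1 bp, which gave 28549 regions, and by keeping those that held a W6 and a W12 peak, no W1 or W2 peak and no overlap with a D0 peak. The 1975 late regions made up 6.92% of all regions and held 1976 of the 20579 W6 peaks (9.60%) and 1984 of the 9745 W12 peaks (20.4%). The late regions were thus chosen by presence in the SOX9 lists, and their SOX9 signal is given as description only.

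In CNR, an antibody brings a nuclease to its target protein, and the short pieces of DNA it frees are sequenced. Male CD1 mice gave the epidermal stem cells (EpdSCs), sorted from back skin, and had the genotype K14rtTA; TRE-myc-Sox9, in which a Krt14 promoter drives the doxycycline (DOX)-dependent activator rtTA in basal epidermis and a Sox9 transgene with a MYC tag responds to rtTA. The SOX9 antibody was used at D0 at postnatal day 21, when DOX began, W1 at day 28, W2 at day 35, W6 at day 63 and W12, and the MLL3/4 antibody at the first 3 of these, each time on 2 samples that the authors combined into 1 peak list. The sort took CD49f-high, Ly6A-high cells without CD34 and without CD31, CD45, CD117 and CD140a, and according to the study's methods the W12 cells came from neonatal skin grafted onto immunocompromised hosts, so that the W12 lists differ from the others in host as well as in time. CNR for MLL3/4 and for the MYC tag was also made in keratinocytes cultured from back skin of male CD1 mice. These carried K14rtTA with TRE-myc-Sox9 (WT-SOX9, with or without 1 µg/ml DOX), with TRE-myc-Sox9noTA (dTA-SOX9, without the transactivation domain, with DOX) or with TRE-myc-Sox9noHMG (dHMG-SOX9, without the DNA-binding HMG domain, with DOX), so that the uninduced skin and culture groups carried the transgenes too.

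SOX9 is a transcription factor of hair follicle stem cells and of basal cell carcinoma. Its HMG domain binds a short word with ATTGT or TTTGT at its end, as a single molecule or as a pair of molecules on facing words. AP1 is the family of FOS and JUN dimers, abundant in epidermis and activated by wounding and growth factors, which binds TGAGTCA and its reverse complement TGACTCA. RUNX factors bind AACCACA. MLL3 and MLL4 are the histone methyltransferases that mark enhancers, and their peaks are read here only as places where the antibody signal was found.

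To show what these regions look like, windows of 50 bp to either side of the centre of the W12 maximum are printed from the + strand of GRCm38 (mm10) as RefSeq gives it, chosen for a high W12 total signal among windows with the word in question. Capitals mark SOX words on either strand (CCATTGT, its relative CCTTTGT, and the same words with another first letter, GCATTGT and besides GCTTTGT), AP1 words or RUNX words. Each is named by the nearest protein-coding start and by its place in the annotation. A promoter here is that of any annotated transcript, not always of the named gene. The Nup35 window lay 192292 bp from the Nup35 start. The 2 windows near Sfi1 that the same choice named are left out because uninduced MYC-tag peaks covered them, and the Api5 window, also on such a peak, is kept as the one with an AP1 word alone.
Acvr1 (intron, SOX and AP1 words), chr2:58505887-58505987: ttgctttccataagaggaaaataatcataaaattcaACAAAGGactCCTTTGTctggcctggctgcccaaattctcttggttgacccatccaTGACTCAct
Qrsl1 (intergenic, SOX and AP1 words), chr10:43783522-43783622: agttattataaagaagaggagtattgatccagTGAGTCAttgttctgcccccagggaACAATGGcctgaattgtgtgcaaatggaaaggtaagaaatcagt
Fgf12 (intergenic, SOX and AP1 words), chr16:28084076-28084176: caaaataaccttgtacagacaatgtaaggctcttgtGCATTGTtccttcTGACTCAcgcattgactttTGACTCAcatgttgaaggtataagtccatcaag
Api5 (intergenic, AP1 words), chr2:94737683-94737783: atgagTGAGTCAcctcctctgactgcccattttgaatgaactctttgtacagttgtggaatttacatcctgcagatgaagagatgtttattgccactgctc
Agbl1 (intron, SOX words), chr7:76408227-76408327: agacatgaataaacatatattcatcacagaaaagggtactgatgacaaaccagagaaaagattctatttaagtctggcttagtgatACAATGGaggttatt
Inhba (intergenic, SOX words), chr13:16659569-16659669: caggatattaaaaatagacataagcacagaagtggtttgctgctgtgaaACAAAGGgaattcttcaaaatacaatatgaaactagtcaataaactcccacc
Nup35 (promoter, SOX words), chr2:80836446-80836546: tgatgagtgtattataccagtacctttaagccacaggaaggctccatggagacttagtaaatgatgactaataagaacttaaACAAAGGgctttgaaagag
Pus7 (intergenic, RUNX words), chr5:23719016-23719116: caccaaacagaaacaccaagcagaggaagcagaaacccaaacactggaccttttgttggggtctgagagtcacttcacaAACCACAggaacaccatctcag
Slc23a4 (intron, RUNX words), chr6:34971717-34971817: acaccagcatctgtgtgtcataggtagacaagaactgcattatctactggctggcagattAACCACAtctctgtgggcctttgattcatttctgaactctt
In the Acvr1 window, ACAAAGG faces CCTTTGT across 3 bases, and the Acvr1 and Qrsl1 windows also hold the SOX pair word, which is ACAA and TTGT facing each other with 7 to 9 bases between them.

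At W6 the maximum SOX9 signal of the late regions ranged from 1805 to 11712 RPKM (reads scaled to bin length and library size) with a median of 2812, and at W12 from 1838 to 12363 RPKM with a median of 2482. The authors kept peaks above 1800 RPKM. Of the late regions, 469 (23.7%) were under 2000 RPKM at W6 or at W12, and 180 (9.11%) were above 3600 RPKM at both. Regions with SOX9 at all 4 time points had medians of 4492 RPKM at W6 and 2712 RPKM at W12. W12 exceeded W6 at 723 late regions (36.6%), by over 2-fold at 25, and lay more than 2-fold below it at 73 (3.70%). The W6 and W12 maxima lay a median of 9 bp apart, and at 1551 regions (78.5%) within 50 bp. A single fragment was worth 42.0 RPKM at W6, 46.0 at W12, 57.6 at W1 and 76.4 at W2, so the weakest listed peaks rested on 43, 40, 32 and 24 fragments. Absence at W1 or W2 therefore means that no peak passed 1800 RPKM, not that no SOX9 was there, and 1 pooled list a time point gives no measure of replicate error.

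**Figure D1:**
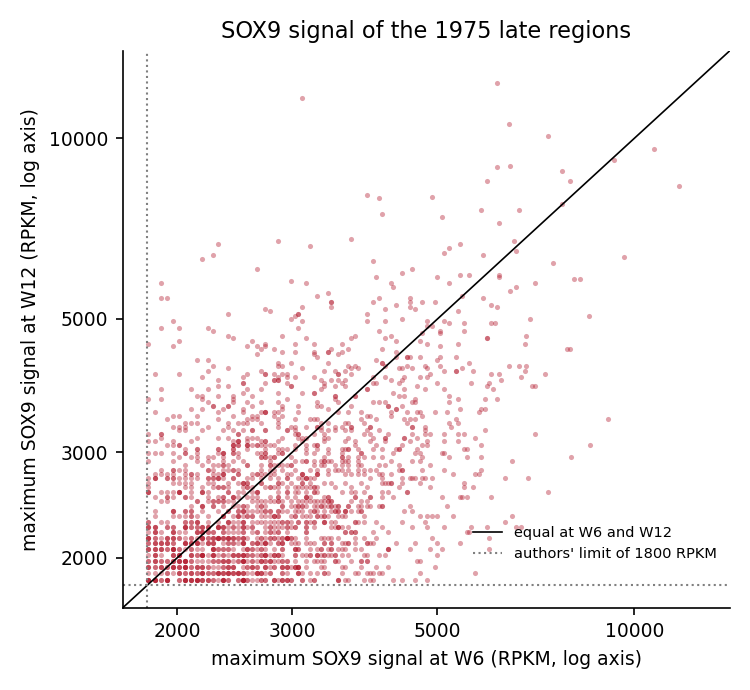
Maximum SOX9 signal of each of the 1975 late regions at W6 (x axis) and W12 (y axis) in RPKM on log axes, 1 point a region, with the line of equal signal and the authors' limit of 1800 RPKM. The points are densest near the limit, with medians of 2812 RPKM at W6 and 2482 at W12.

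Most late regions lay over 10 kb from any peak that the rule kept out. The nearest D0, W1 or W2 SOX9 peak was a median of 35950 bp away, 5 late regions had one within 100 bp, the closest at 43 bp, 76 (3.85%) had one within 1 kb and 513 (26.0%) within 10 kb. Regions with SOX9 at W6 alone lay closer, with a median of 13090.5 bp and 44.4% within 10 kb. Those with W12 alone lay farther, with 59511 bp and 19.0%. Just outside the rule, 5538 regions with W6 and W12 peaks were removed by a W1 or W2 peak, and none of these was touched over fewer than 152 bases. The nearest other late region was a median of 202393 bp away, and 210 (10.6%) had another within 10 kb. Whether late regions lie closer together or farther apart than regions placed at random was not tested.

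Few late regions lay at promoters. A promoter, meaning the 1 kb on each side of a transcription start in the annotation, was touched by 139 of 1975 (7.04%, 95% Wilson interval 5.99 to 8.25), against 23.4% of all 28549 SOX9 regions, 16.5% of the 4024 regions with SOX9 at W6 alone and 20.02% of the 4531 regions with SOX9 at all 4 time points. The difference from W6 alone was -9.49 points (95% Newcombe interval -11.1 to -7.84) and from all 4 time points -13.0 points (-14.6 to -11.3), whereas the interval against the 1293 regions with W12 alone, -2.84 to 0.890, held 0. Among regions above 3600 RPKM at each time with a peak, the difference from W6 alone was 0.137 points (-6.88 to 6.31) and from all 4 time points -4.17 points (-8.10 to 1.16), both intervals holding 0. These intervals cover counting over regions only. Introns held 46.1% and intergenic DNA 44.9%, beside 39.2% and 35.03% of all SOX9 regions. Over 50 kb from the nearest protein-coding start lay 37.6%, beside 26.0% of all SOX9 regions, which was 9.30 points (6.81 to 11.8) more than at all 4 time points, whereas the difference from W12 alone at 39.4% was -1.75 points (-5.17 to 1.66).

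In skin, few late regions carried MLL3/4 before or shortly after induction. At D0 an MLL3/4 peak overlapped 250 of 1975 (12.7%, 11.3 to 14.2), at W1 284 (14.4%, 12.9 to 16.0) and at W2 222 (11.2%, 9.92 to 12.7), while 53.7%, 59.8% and 60.1% of all SOX9 regions were overlapped at these times. Moved by 10 kb to each side, the same regions were overlapped in 2.68%, 2.25% and 2.28%, so the shares stood above their surroundings. Regions with SOX9 at all 4 time points reached 57.5% at D0, 87.3% at W1 and 85.7% at W2, and the late regions minus these gave -44.9 (-46.9 to -42.8), -72.9 (-74.6 to -71.0) and -74.5 points (-76.1 to -72.7). The W1 and W2 part of this comparison is between regions with and without SOX9 at the time of the MLL3/4 measurement. Late regions were also a median of 556 bp wide and those of all 4 time points 857 bp, and the part of width in these shares was not tested.

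MLL3/4 at D0 also differed between the late regions and those of 1 time point. W6 alone had 27.6%, from which the late regions differed by -14.9 points (-16.9 to -12.8), and W12 alone had 7.19%, which the late regions exceeded by 5.47 points (3.39 to 7.47). Among regions above 3600 RPKM, the difference from W12 alone turned to -13.3 points (-24.8 to -5.41). Regions with W12 alone were a median of 374 bp wide and those with W6 alone 488 bp, beside 556 bp for late regions, and the part of width in these differences was not tested either. In all, 1515 late regions (76.7%) carried no MLL3/4 peak at D0, W1 or W2, and 83 (4.20%) carried one at all 3 times, beside 25.6% and 38.9% of all SOX9 regions. W12 alone had 88.2% and 2.32%. MLL3/4 at W6 and W12, when SOX9 was present, was not analysed here.

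In cultured keratinocytes without SOX9 induction, MLL3/4 was on a smaller share of the late regions than of all SOX9 regions. This share is not compared with that in skin, since the cells and lists differ and the depth is unknown. The no-DOX list overlapped 805 of 1975 (40.8%, 38.6 to 42.9; moved regions 3.19%), against 44.7% of all SOX9 regions, 35.1% of those with W6 alone, 34.2% with W12 alone and 55.8% with all 4 time points. Of these 805, 485 carried no MLL3/4 peak in skin at D0, W1 or W2 and 320 carried one. Such a peak was missing at 76.7% of all late regions and 25.6% of all SOX9 regions. The same division was not computed for other SOX9 regions on the no-DOX list. After induction, the MLL3/4 shares of late regions were 24.2% for WT-SOX9, 37.5% for dTA-SOX9 and 30.6% for dHMG-SOX9, beside 21%, 33.5% and 34.4% of all SOX9 regions. The MLL3/4 lists had 33975 peaks without DOX but 10543 with WT-SOX9, and with each list held to its 10543 peaks of highest total signal the no-DOX share was 18.2%, under the 24.2% of WT-SOX9, so no order between these lists is read. The culture shares of late regions were above those of W6 alone in all 4 lists, by 5.62 points (3.01 to 8.25) without DOX and by 13.3 points (11.3 to 15.5) with WT-SOX9. Among regions above 3600 RPKM, the intervals held 0 without DOX (1.60 points), with dTA-SOX9 (10.4) and with dHMG-SOX9 (7.55), but not with WT-SOX9.

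MYC-tagged SOX9 was found at part of the late regions in culture. WT-SOX9 peaks overlapped 394 of 1975 late regions (19.9%, 18.2 to 21.8; moved regions 0.709%), against 12.2% of all SOX9 regions, 5.96% of W6 alone, 12.6% of W12 alone and 33.2% of all 4 time points. The late regions exceeded W6 alone by 14.0 points (12.1 to 15.9) and differed from all 4 time points by -13.3 points (-15.5 to -11.0). The dTA-SOX9 protein overlapped 634 (32.1%, 30.1 to 34.2; all SOX9 regions 17.5%), 21.8 points (19.5 to 24.0) more than W6 alone at 10.3%, while the difference from all 4 time points at 32.9% had an interval of -3.21 to 1.73 points, which held 0. W12 alone had 35.4%, from which the late regions differed by -3.32 points (-6.65 to -0.0140). This difference was 4.41 points (-10.1 to 17.5) above 3600 RPKM, and its interval also held 0 on autosomes alone (-3.28 points) and with shorter lists (-1.72 and -0.784 points). The dHMG-SOX9 protein overlapped 3.95% and the uninduced cells 2.28%, beside 5.42% and 4.3% of all SOX9 regions. The MYC-tag lists had 6671 peaks for WT-SOX9 and 11341 for dTA-SOX9, and at 2242 peaks each, the size of the no-DOX list, their shares were 10.3% (9.02 to 11.7) and 10.4% (9.16 to 11.9), so no order between these proteins is read.

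**Figure D2:**
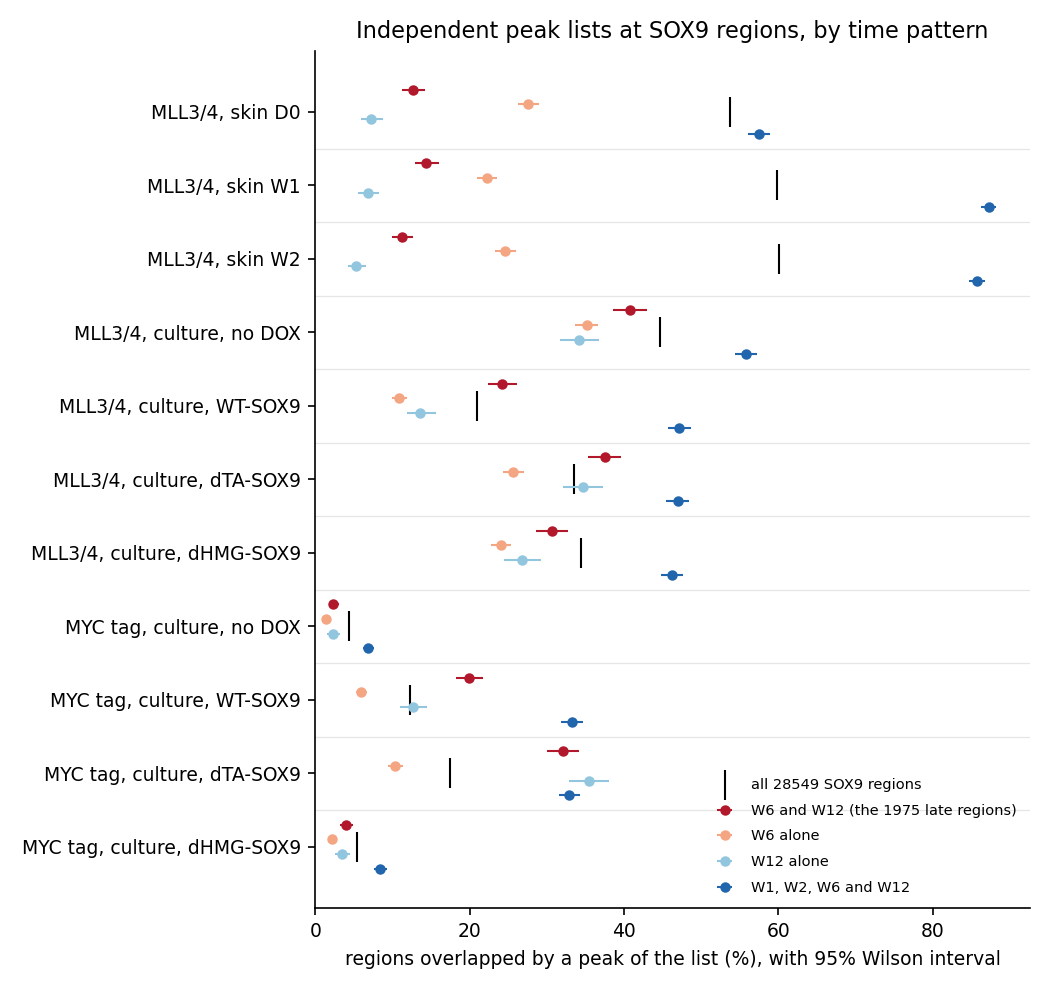
Share of SOX9 regions (x axis, %) that a peak of each of the 11 other lists overlaps (y axis), for late regions and for regions with SOX9 at W6 alone, W12 alone or all 4 time points, with 95% Wilson intervals, and for all 28549 regions (black line). In skin the late regions stay at 11.2% to 14.4% on MLL3/4 while those of all 4 time points reach 57.5% to 87.3%.

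The 2 proteins divided the late regions in culture. Of the 1975, 121 were on both lists, 273 on WT-SOX9 alone, 513 on dTA-SOX9 alone and 1068 on neither. Of all SOX9 regions, 3.96% were on both, 8.25% on WT-SOX9 alone and 13.5% on dTA-SOX9 alone. MLL3/4 without DOX was on 410 of the 513 with dTA-SOX9 alone (79.9%, 76.2 to 83.2) and on 12 of the 273 with WT-SOX9 alone (4.40%, 2.53 to 7.52). MLL3/4 with WT-SOX9 was on 170 of the 273 (62.3%) and on 143 of the 513 (27.9%). Regions with SOX9 at W6 alone had close shares on this list, 62.4% with WT-SOX9 alone and 22.8% with dTA-SOX9 alone. The split without DOX was also seen in skin at D0, where MLL3/4 was on 107 of the 513 (20.9%, 17.6 to 24.6) and on 2 of the 273 (0.733%, 0.201 to 2.63). The intervals did not overlap in either case. The division was not particular to the late regions. Over all SOX9 regions, MLL3/4 without DOX was on 86.01% with dTA-SOX9 alone and on 27.04% with WT-SOX9 alone, and MLL3/4 at D0 on 61.01% and 27.8%. WT-SOX9 alone minus dTA-SOX9 alone without DOX was -75.5 points (-79.3 to -70.7) at late regions, -71.98 at W6 alone, -55.97 at W12 alone and -66.2 at all 4 time points. With the lists of each antibody at the size of the shortest, 171 late regions were on WT-SOX9 alone and 174 on dTA-SOX9 alone, and the difference was -56.9 points (-64.0 to -48.7). At D0 it was -20.1 points (-23.9 to -16.3), and above 3600 RPKM -8.11 points (-21.3 to 0.787).

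The centres of the late regions were rich in AP1 and SOX words. An AP1 word stood in 727 of 1975 windows (36.8%, 34.7 to 39.0), against 2.03% of control windows 1 kb away, an 18.2-fold difference, and against 20.3% of the windows of all SOX9 regions. A SOX word stood in 467 (23.6%, 21.8 to 25.6; control 6.20%; all SOX9 regions 17.7%), and a SOX pair in 201 (10.2%, 8.92 to 11.6; control 0.684%; all SOX9 regions 6.17%), with 50.2% of the 201 also holding a SOX word. A longer SOX word, CCATTGTT and its relative CCTTTGTT, stood in 126 windows (6.38%; all SOX9 regions 5.11%) and a shorter one, CATTGT and its relative CTTTGT, in 817 (41.4%; all SOX9 regions 30.2%). Among windows that held the word, the nearest AP1 word was a median of 11 bp and the nearest SOX word a median of 15 bp from the centre. In all, 1200 windows (60.8%) held at least 1 of the 3, against 8.66% of control windows and 38.4% of the windows of all SOX9 regions.

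AP1 words were more frequent at late regions than at those with SOX9 from W1 on. Their share was 14.3 points (11.9 to 16.8) above the 22.5% of all 4 time points and 10.2 points (7.65 to 12.7) above the 26.6% of W6 alone, and the interval against W12 alone at 36.3%, -2.93 to 3.82 points, held 0. SOX words went the other way, with 28.7% at all 4 time points and a difference of -5.02 points (-7.28 to -2.70), as did SOX pairs, with 13.0% and -2.78 points (-4.39 to -1.08). Against W6 alone, both SOX words and SOX pairs were more frequent at late regions, by 4.54 points (2.33 to 6.79) and 4.83 points (3.38 to 6.39). Among regions above 3600 RPKM, the intervals held 0 for AP1 words against W6 alone (1.58 points), for SOX words against all 4 time points (-7.29) and for SOX pairs against both (8.55 and -4.80). The longer SOX word differed from W6 alone by 1.16 points, with an interval that held 0.

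**Figure D3:**
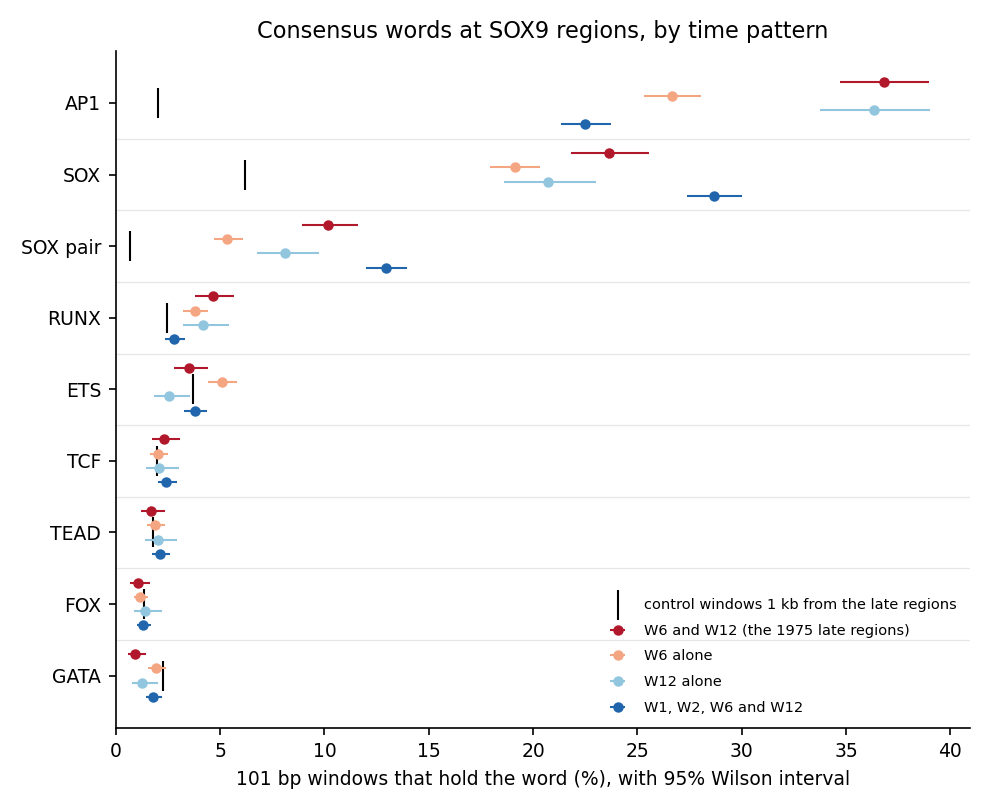
Share of windows of 50 bp to either side of the centre (x axis, %) that hold each consensus word (y axis) at late regions and at regions with SOX9 at W6 alone, W12 alone or all 4 time points, with 95% Wilson intervals, beside control windows 1 kb from the late regions (black line). AP1 stands highest among these words, at 36.8% of late windows against 22.5% at all 4 time points, while ETS, TCF, TEAD and FOX stay near the control.

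Ranked without any list, all 2080 six-letter words gave the same picture. GACTCA with its reverse complement TGAGTC stood first, in 40.4% of late windows and 5.06% of control windows, GAGTCA with TGACTC second, in 41.1% against 5.97%, and ACAATG with CATTGT came sixth, in 22.8% against 6.20%. RUNX words stood in 92 windows (4.66%, 3.81 to 5.68; control 2.43%; all SOX9 regions 2.61%), 1.88 points (0.885 to 2.99) above all 4 time points. The differences from W6 alone, 0.881 points (-0.176 to 2.04), and from W12 alone, 0.482 points (-1.01 to 1.88), had intervals that held 0, but not in windows of 100 bp to each side (2.93 and 2.31 points). Above 3600 RPKM, the RUNX intervals against control (0 points) and all 4 time points (2.03) held 0. GATA words (AGATAAG and AGATAAC), bound by a family with a role in epidermal identity, stood in 18 windows (0.911%, 0.577 to 1.44), a difference of -1.37 points (-1.98 to -0.694) from the control at 2.28%, with all SOX9 regions at 2.48%. Above 3600 RPKM, this difference was -2.50 points (-4.88 to 0.358). The words TEAD (ACATTCC, 1.67%, all SOX9 regions 2.17%), ETS (CAGGAAG, 3.49%, 4.07%), FOX (TGTTTAC, 1.06%, 1.43%), TCF (CTTTGAT, 2.33%, 2.02%), KLF (GGGCGTG, 0.405%, 2.2%) and NFKB (0.203%, 0.35%) had intervals of the difference from their control that held 0. GLI (GACCACCCA), NFI and CEBP (TTGCGCAA) words stood in 0 of 1975 windows, which allows a share of up to 0.194%, and in 0.0175%, 0.0175% and 0.028% of all SOX9 regions.

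**Figure D4:**
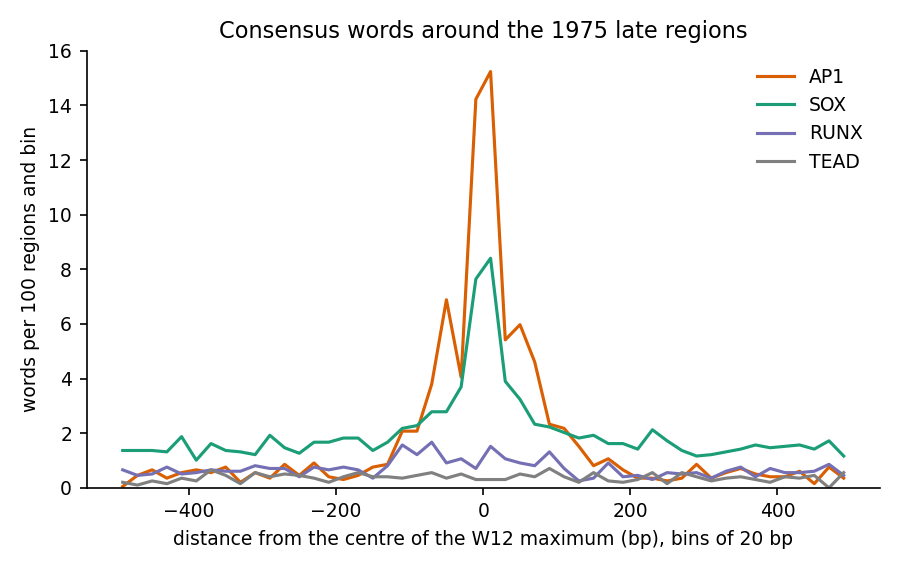
Words per 100 late regions in bins of 20 bp (y axis) by distance from the centre of the W12 maximum (x axis, bp) for AP1, SOX, RUNX and TEAD. AP1 reaches 15.2 and SOX 8.41 in the bin just right of the centre, AP1 has side peaks of 6.89 and 5.97 at 50 bp to the left and right, and TEAD stays flat.

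The AP1 words were not spread evenly around the centre. Per 100 regions there were 14.2 and 15.2 AP1 words in the bins on either side of the centre, 4.05 and 5.42 in the bins at 30 bp and 6.89 and 5.97 in the bins at 50 bp. SOX words went from 7.65 and 8.41 to 3.70 and 3.90 and then to 2.78 and 3.24 in these bins.

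Most late windows held a SOX word or an AP1 word but not both. SOX without AP1 stood in 385, AP1 without SOX in 645, both in 82 (4.15%) and neither in 863. Of all SOX9 regions, 15.3% held SOX without AP1, 17.9% AP1 without SOX and 2.40% both. These groups differed in the lists that used neither sequence nor the W6 and W12 signal. MLL3/4 of cultured cells without DOX was on 407 of the 645 AP1 regions (63.1%, 59.3 to 66.7) and on 62 of the 385 SOX regions (16.1%, 12.8 to 20.1), SOX minus AP1 being -46.997 points (-51.9 to -41.5). In skin at D0, MLL3/4 was on 129 of the 645 (20%, 17.1 to 23.3) and on 11 of the 385 (2.86%, 1.60 to 5.04), a difference of -17.1 points (-20.6 to -13.5). Above 3600 RPKM, the latter was -6.01 points (-19.0 to 3.57). The D0 split was not particular to late regions. At W6 alone, MLL3/4 at D0 was on 36.8% of AP1 regions and 10.4% of SOX regions, a difference of -26.4 points (-30.1 to -22.5).

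The MYC-tagged proteins divided the late regions along the same words. WT-SOX9 was on 32.7% of SOX regions and on 7.75% of AP1 regions, a difference of 24.98 points (19.9 to 30.1; above 3600 RPKM 20.5, -0.197 to 38.6), while dTA-SOX9 was on 18.4% of SOX regions and on 40.2% of AP1 regions, a difference of -21.7 points (-26.9 to -16.1). Of the late regions on WT-SOX9 alone, 39.9% held a SOX word, 22.7% a SOX pair and 10.6% an AP1 word, and of those on dTA-SOX9 alone 13.6%, 2.34% and 49.5%. These shares by protein were computed for late regions only, so whether they are particular to late regions was not tested. The SOX pair differed by 20.4 points (15.5 to 25.8) and AP1 by -38.9 points (-44.2 to -32.9) between these lists, WT-SOX9 minus dTA-SOX9. The interval for RUNX words, -3.62 to 2.2 points, held 0. The 82 regions with both words had 34.1% on MLL3/4 without DOX, between the 2 groups, and the 863 with neither had 35.7%. The 82 were not between them on dTA-SOX9, with 41.5%, nor on MLL3/4 in skin at W1, with 3.66% (AP1 19.1%, SOX 5.97%), or W2, with 2.44% (AP1 14.3%, SOX 4.94%). The division by word held in the same direction in the other classes. SOX minus AP1 on MLL3/4 without DOX was -36.2 points at W6 alone, -25.4 at W12 alone, -42.03 at all 4 time points and -35.5 over all SOX9 regions. On WT-SOX9 it was 11.6, 13.2, 28.6 and 17.3 points and on dTA-SOX9 -8.05, -12.5, -23.3 and -13.7 points, with no interval that held 0.

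**Figure D5:**
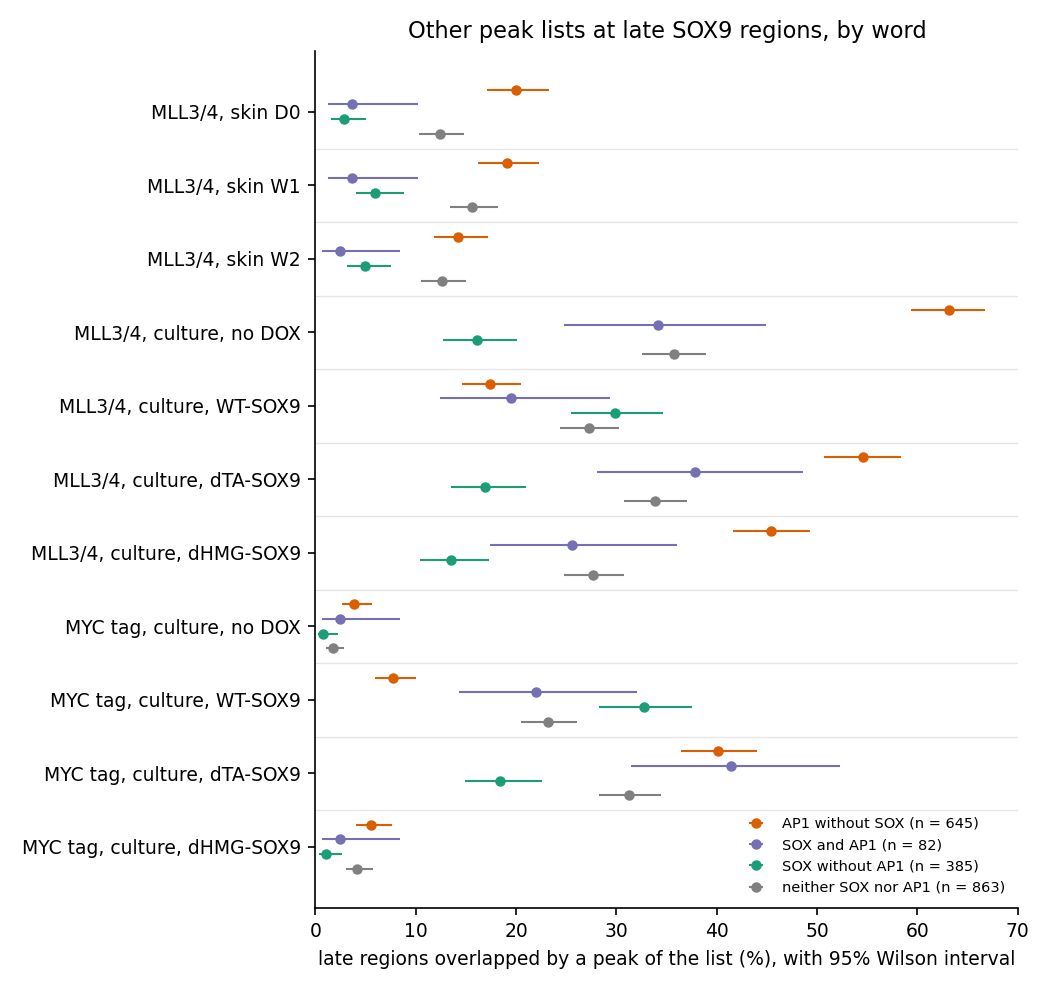
Share of late regions (x axis, %) that a peak of each of the 11 other lists overlaps (y axis), for the 645 with an AP1 word alone, the 82 with both words, the 385 with a SOX word alone and the 863 with neither, with 95% Wilson intervals. AP1 regions lead on uninduced MLL3/4, at 63.1% in culture, and SOX regions lead on WT-SOX9, at 32.7%.

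Some of these shares differed between late regions of weak and strong W12 signal, which is given as description since that signal was part of the choice. With the late regions split into 4 groups of 493 or 494 by W12 total signal, from the lowest group to the highest AP1 words went from 46.96% to 26.9%, MLL3/4 at D0 in skin from 19.2% to 8.10%, WT-SOX9 in culture from 11.9% to 34.0% and dTA-SOX9 from 17.0% to 46.2%. SOX words went from 22.3% (18.8 to 26.1) to 27.7% (24.0 to 31.8), intervals that overlap. MLL3/4 in culture without DOX was at 41.3%, 36.0%, 45.2% and 40.5% and RUNX words were at 4.66%, 4.86%, 4.67% and 4.45% in these groups, with no steady trend. The part of region width in both MYC-tag shares was not tested. Above 3600 RPKM at both times, the 180 remaining late regions held AP1 words in 29.4% and SOX words in 37.8%.

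The regions with the highest W12 total signal lay in introns at 7 of the first 12, at promoters of any annotated transcript at 3 and between genes at 2. The first was at chr11:3155249-3159085 in an intron of Sfi1, where the maximum was 2267 RPKM at W6 and 6388 at W12, covered by all 11 other lists, the uninduced ones included. With its neighbours, 3 late regions lay between 3150710 and 3159085 on that chromosome, and all 3 were on uninduced MYC-tag peaks, as were 45 late regions in all. Without these 45, the shares and differences that changed their side or left their interval were those of the uninduced MYC-tag list itself.

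The second was in an intron at chr15:56975288-56976293, 281257 bp from the nearest protein-coding start, that of Has2, which encodes a hyaluronan synthase. It had 10704 RPKM at W6 and 9605 at W12, no MLL3/4 in skin, and in culture both WT-SOX9 and dTA-SOX9 and all 4 MLL3/4 lists. The third, in an intron of Agbl1 at chr7:76407783-76408958, had 6171 RPKM at W6 and 8962 at W12, a SOX word, both proteins in culture and MLL3/4 with WT-SOX9 and dTA-SOX9, but none without DOX. The region at chr2:58505383-58506238 in an intron of Acvr1, which encodes a BMP type I receptor, had 7976 RPKM at W6 and 8502 at W12, holds the facing SOX words and the AP1 word printed above, and was on both proteins and all 4 cultured MLL3/4 lists. In contrast, the region at chr14:59779939-59781140, in an intron, with 11712 RPKM at W6 and 8318 at W12, was on none of the 11 other lists. In all, 600 late regions (30.4%, 28.4 to 32.4) were on none of them, beside 14.2% of all SOX9 regions, 35.7% of W6 alone, 37.5% of W12 alone and 3.002% of all 4 time points.

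By the nearest protein-coding start, the late regions fell to 1502 of 21911 protein-coding genes (6.86%). Of these genes, 1191 had 1 late region, 206 had 2 and 105 had 3 or more. Most, 1022 of 1502 (68.0%), were also nearest to a W1 or W2 SOX9 region, as were 35.4% of all protein-coding genes. A nearest start says nothing of regulation. Ank, which encodes a pyrophosphate transporter, and Sema6a, a semaphorin, had 7 late regions each, and Klf6, Myc, Cyp7b1 and Atp2b1 had 6 each. Of the 7 late regions at Ank, 3 held a SOX word and 1 an AP1 word, and Ank was nearest to 2 W1 or W2 regions, whereas Myc, the proto-oncogene, had 35 and Klf6, a zinc finger factor, had 33. At Inhba, which encodes the activin A subunit, 5 late regions lay between 451522 and 682377 bp from the start, of which 4 were on cultured MLL3/4 without DOX and 4 on dTA-SOX9. Of all late regions, 40.8% and 32.1% were on these lists.

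Among gene lists for the pathways of this tissue, the EGF receptor and its ligands had 7 of 12 genes with a late region. These (58.3%, beside 6.86% of all protein-coding genes) were the receptors Egfr and Erbb4, the ligands Areg, Btc, Epgn and Nrg1 and the feedback inhibitor Errfi1, with 11 late regions and a median of 1 a gene. Of these 7 genes, 6, all but Nrg1, had a late region on cultured MLL3/4 without DOX. This list overlapped 40.8% of all late regions and 44.7% of all SOX9 regions. By region, it covered 1 of 2 at Areg, 1 of 2 at Btc, 0 of 3 at Nrg1 and the 1 at each of the others. The region at Egfr, at chr11:16735189-16736032 and 16315 bp from its start, had 2267 RPKM at W6 and 3585 at W12, a SOX word and dTA-SOX9 in culture. The region at Epgn, at chr5:90987172-90987849, had 2896 and 2987 RPKM, an AP1 word, MLL3/4 in skin at D0 and W1 and dTA-SOX9 in culture.

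Hair follicle stem cell regulators had 7 of 14 genes with a late region (Tcf7l1, Tcf7l2, Nfatc1, Foxc1, Nfib, Sox9 and Cd34) and 12 regions. For this list and those below, the share over all protein-coding genes is again 6.86%. All 7 genes, like the 7 of the EGF list, were also nearest to a W1 or W2 SOX9 region. Sox9 itself had 3, from 120473 to 478914 bp from its start, 2 of them with an AP1 word and 2 on dTA-SOX9. Of all late regions, 36.8% held an AP1 word and 32.1% were on dTA-SOX9. The region at Cd34, a surface protein of hair follicle stem cells, at chr1:194908918-194909391 had 3526 RPKM at W6 and 3952 at W12. The RUNX list had 3 of 4 genes, Runx1, Runx2 and Runx3, with 4 regions. Runx1 had 2 late regions in its introns, at chr16:92739882-92740633 with 3232 RPKM at W6 and 3079 at W12 and at chr16:92620670-92621052 with 2603 and 2252 RPKM, both with an AP1 word, beside 32 W1 or W2 regions. The first of these was 385 bp from a SOX9 peak of D0, W1 or W2. No late region at a RUNX gene was on a MYC-tag list.

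Injury and inflammation genes had 8 of 21 with a late region: the cytokines Il1a and Il1b, the chemokines Cxcl1 and Cxcl2, the NF-kB genes Nfkb1 and Nfkbia, the NF-kB inhibitor Tnfaip3 and Stat3. The Cxcl2 region touched its promoter at chr5:90903158-90903641, 502 bp from the start, with 2225 RPKM at W6 and 2252 at W12, a SOX word and MLL3/4 in culture without DOX. Cxcl1, Cxcl2, Epgn, Areg and Btc are neighbours on chromosome 5 from 90891241 to 91402994, so the counts of these 2 lists share a stretch of DNA. TGF-beta and BMP genes had 6 of 18 (Tgfbr2, Smad2, Smad3, Bmp2, Inhba and Ltbp1), with 12 regions, and 3 of 18 when a late region had to lie within 50 kb of the gene body (10.5% of all protein-coding genes).

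Genes of epithelial-mesenchymal transition had 4 of 12, Vim, Zeb1, Zeb2 and Itga5. At Vim, which encodes the filament protein of mesenchymal cells, the late region lay in an exon at chr2:13575829-13576438, 1730 bp from a start and 304053 bp from the nearest D0, W1 or W2 SOX9 peak. It had 3232 RPKM at W6 and 2895 at W12, a SOX and a RUNX word and WT-SOX9 in culture, with no MLL3/4 on any list. The 3 regions nearest to Zeb2 lay 1208053 to 1395465 bp from its start. WNT genes had 6 of 19 (Wnt7b, Fzd1, Fzd7, Lef1, Sfrp1 and Wif1) and epidermal genes 4 of 14 (Trp63, Klf4, Grhl2 and Egfr), where the Grhl2 region, 208 bp from a start, had 3526 RPKM at W6 and 2390 at W12, a SOX word and none of the 11 other lists.

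Integrins and laminins had 4 of 14 (Itga2, Itga5, Itgb8 and Lamb3), the SOX family, listed without Sox9, 3 of 13 (Sox2, Sox4 and Sox5), AP1 genes 2 of 10 (Jun and Batf), angiogenesis genes 2 of 16 (Flt1 and Pdgfc) and hedgehog and basal cell carcinoma genes 2 of 13 (Gli2 and Sufu). Both late regions nearest to Sox2 were on WT-SOX9 in culture and on no cultured MLL3/4 without DOX. Collagens had 0 of 13. Within 50 kb of the gene body, the SOX family had 5 of 13 and angiogenesis genes 1 of 16. These counts carry no test. Among listed genes with a late region, Il1a, Cxcl2, Vim, Zeb1, Lef1, Wif1, Smad2, Itga2 and Flt1 were nearest to no W1 or W2 region. All others were nearest to some.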

How the data were processed

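CNR for SOX9 (D0, W1, W2, W6, W12), MLL3/4 and the MYC tag was read from 16 deposited peak lists, each pooled by the authors from 2 samples. Of the 41 samples, 9 samples for JUN, BRG1 and ARID1a are left out as not analysed here, and 2 lists of single replicates were not used. Per the labels and methods, reads were trimmed with Skewer, aligned to mm10 with Bowtie2 2.2.9, duplicates removed with Picard, fragments up to 120 bp kept, tracks made with deepTools 3.1.2 (the submitters' processing notes also name SAMtools 1.3.1) and peaks called with SEACR (stringent, 0.01). The deposited maximum signal of SOX9 and MYC-tag peaks is in RPKM, kept by the authors above 1800, and the deposited total signal is its sum over the peak. The deposited maximum signal of MLL3/4 peaks holds whole numbers only, although the methods describe RPKM tracks and the names of the 3 skin lists say so, and is taken as unscaled coverage. Their deposited total is a score, its sum over the peak, so lists were compared by overlap only. For induced WT-SOX9, both MLL3/4 samples have descriptions that name replicate 2, so which replicates that list pools is unsure.

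Peaks were merged where they shared 1 bp. Shares have 95% Wilson intervals and differences Newcombe intervals, which stand in for a test because each group has 1 list, and they cover counting over regions only. An upper limit for a count of 0 is the Wilson bound. Local background was the overlap after moving regions 10 kb to each side. Words were counted on both strands in RefSeq GRCm38.p6, 50 bp to either side of the centre of the W12 maximum (of W6, W2 or W1 where W12 had none) and 1 kb away. The SOX and SOX pair words can overlap. Genes came from GENCODE vM21, with coordinates counted from 1. Depth was taken from the RPKM step of 1 fragment (32.5, 17.4, 13.1, 23.8 and 21.8 M fragments at D0, W1, W2, W6 and W12). The depth of the MLL3/4 lists is unknown.

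Named were the 12 late regions with the highest W12 total signal, the 12 genes nearest to most late regions, genes of 14 lists with a late region, and the 3 windows of highest W12 total signal for each word (not all are printed, and those described in full were picked after their values were seen). Members, words and lists were chosen with earlier results of these data known. Python 3.11.15, pandas 2.3.3, numpy 2.4.6, scipy 1.17.1, pysam 0.24.0 and matplotlib 3.10.9 were used, and the steps were tested on simulated data. Alternatives were other overlaps, thresholds, merging, chromosomes, list sizes, windows, words, promoters and gene distances.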

Additional observations from a re-analysis of the deposited data

How the results depend on the processing

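Each of 63 differences between shares was recomputed under up to 14 alternatives, giving 581 values. Of these, 530 kept their reading, meaning an interval that excluded 0 on the same side or one that still held 0. The setting that changed most was a maximum above 3600 RPKM, which left 180 late regions and far fewer of the others, and the cause was not tested. There the promoter difference from W6 alone was 0.137 points and from all 4 time points -4.17 (both intervals holding 0), MLL3/4 at D0, W1 and W2 against W12 alone turned to -13.3, -13.5 and -11.6 points, the uninduced MYC-tag and dHMG-SOX9 differences from W6 alone to -0.792 and -1.88, and dTA-SOX9 against W12 alone to 4.41. Intervals then held 0 for cultured MLL3/4 without DOX against W6 alone (1.60), the same for dTA-SOX9 (10.4) and dHMG-SOX9 (7.55), GATA words against control (-2.50), AP1 words against W6 alone (1.58), SOX words against all 4 time points (-7.29), SOX pairs against W6 alone (8.55) and all 4 time points (-4.80), RUNX words against control (0) and all 4 time points (2.03), and, between SOX and AP1 regions, MLL3/4 at D0 (-6.01) and WT-SOX9 (20.5), and, between regions on WT-SOX9 alone and on dTA-SOX9 alone, MLL3/4 at D0 (-8.11). With the longer SOX word (CCATTGTT or CCTTTGTT) the difference from W6 alone was 1.16 points with an interval that held 0. Of 150 shares, 107 stayed inside their interval, and the 43 others moved mainly with shorter lists, wider windows, other words and the higher threshold. Leaving out regions on uninduced MYC-tag peaks was chosen after seeing the data. No paired analysis was possible because the lists compared are pooled over replicates, and the 2 lists of single replicates, 1 for each of 2 antibodies in uninduced culture, are both of replicate 1. A peak missing at W1 or W2 may lie just under the authors' limit of 1800 RPKM.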
